A study of Mus musculus with 16 samples.

Results

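The motile cilia genes described here were the genes on the arrays whose current symbol begins with Dnah, Dnaaf, Dnali, Rsph, Cfap, Tekt or Spag, together with Foxj1. By these names 64 genes were found among 19092 genes with a symbol, each read from its brightest probe by the mean over all arrays. The annotation holds 82 genes under these names, and the 18 without a probe were not analysed here. The rule used names and no measured value, but it was chosen with earlier results of these data known. The names are wider than the function: some Cfap, Dnaaf and Spag genes are active in cells that have no motile cilia. RNA of whole hearts from male mice on a C57BL/6 background was measured on 16 single-colour Agilent arrays, 4 mice in each of 4 groups. The cardioMRKO mice carried a floxed allele of Nr3c2, the mineralocorticoid receptor gene, and Cre driven by the cardiomyocyte promoter αMHC. The controls (MRflox, flox for short) were littermates that had the floxed allele but no Cre, so an effect of Cre itself cannot be told apart from that of the lost receptor. Hearts of both genotypes were taken at 1 month and at 2 months of age.

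Motile cilia are beating projections of specialised cells such as the multiciliated cells of the airway, the ependyma and the oviduct, and the sperm tail is built on the same axoneme. Outer and inner dynein arms drive the beat, radial spokes and the central pair regulate it, tektins and other inner proteins stiffen the microtubule doublets, and cytoplasmic assembly factors prepare the dynein arms. Foxj1 is the transcription factor that switches on the motile cilia programme, and RFX factors act with it at the X-box motif. The heart muscle itself has no multiciliated cells, and the single primary cilia of heart cells lack dynein arms and radial spokes.

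Levels are log2 processed intensities minus the 75th percentile of the same array, so a level of 0 is that percentile, and levels of different genes are not set against each other because probes differ in brightness. Between 62.5% and 71.6% of probes were well above background on each array and no spot was saturated. All 10 cardiomyocyte markers, among them Myh6, Tnnt2 and Ryr2, were above background on all 16 arrays, and their summed level was 1614 to 2457 times the 75th percentile. At 1 month the targeted gene, Nr3c2, had a mean level of -4.46 ± 0.25 (SD, n = 4) in the flox hearts and of -4.63 ± 0.11 in the knockouts. The difference of -0.17 (two-sided exact permutation p = 0.257) turned to 0.016 with normexp background correction. At 2 months its difference was -0.43 with no overlap between the groups (exact permutation p = 0.0286, which is the lowest p possible for 4 against 4), and the limma fit over all genes did not call it (adjusted p = 0.122). Whether its probe lies in the floxed part of the gene was not tested. Each group had a slide to itself, so the slide cannot be told apart from the group. The spike-in controls were low on flox replicate 4 at 2 months, by -0.80, and on cardioMRKO replicate 3 at 2 months, by -0.53, as the median deviation from their mean over arrays.

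Foxj1 differed between arrays of the same group as well as between groups. In flox at 1 month its level was -7.48, -7.63 and -8.11 on replicates 1 to 3, where it was not well above background, and -2.73 on replicate 4. In the cardioMRKO hearts of 1 month it stood at -1.18, -3.45, -7.96 and -4.38, with replicate 3 not above background. At 2 months it was above background on all 8 arrays, at -1.90, -1.28, -1.27 and -0.03 in flox and -0.47, -1.78, -3.60 and -0.29 in cardioMRKO. Foxj1 was therefore above background on 12 of 16 arrays, and each 1-month group held arrays both with and without it. In bulk tissue, fewer cells of a type and less RNA per cell cannot be told apart.

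Of the 64 members 31 to 41 were above background on the 4 arrays without Foxj1, 35 to 55 on the other 4 arrays of 1 month, and 54 to 60 on the 8 arrays of 2 months. The first 2 of these ranges overlap: flox replicates 1 and 2 at 1 month, without Foxj1, had 39 and 41, and cardioMRKO replicates 2 and 4, with Foxj1, had 38 and 35. The median deviation of the 53 other tested members from their own means was lowest on flox replicate 3 at 1 month, at -0.97. It was highest on flox replicate 4 at 2 months, at 1.28. That array, which also had the low spike-in signal, gave the highest level of 31 of the 53 members. At 1 month cardioMRKO replicate 1 stood at 0.44, within the range of flox replicates 1 to 3 at 2 months, which were at 0.41, 0.48 and 0.73. The other cardioMRKO arrays of that age stood at -0.46, -0.72 and -0.41. Among the 2-month arrays cardioMRKO replicate 3 was the only array below 0, at -0.41.

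**Figure D1:**
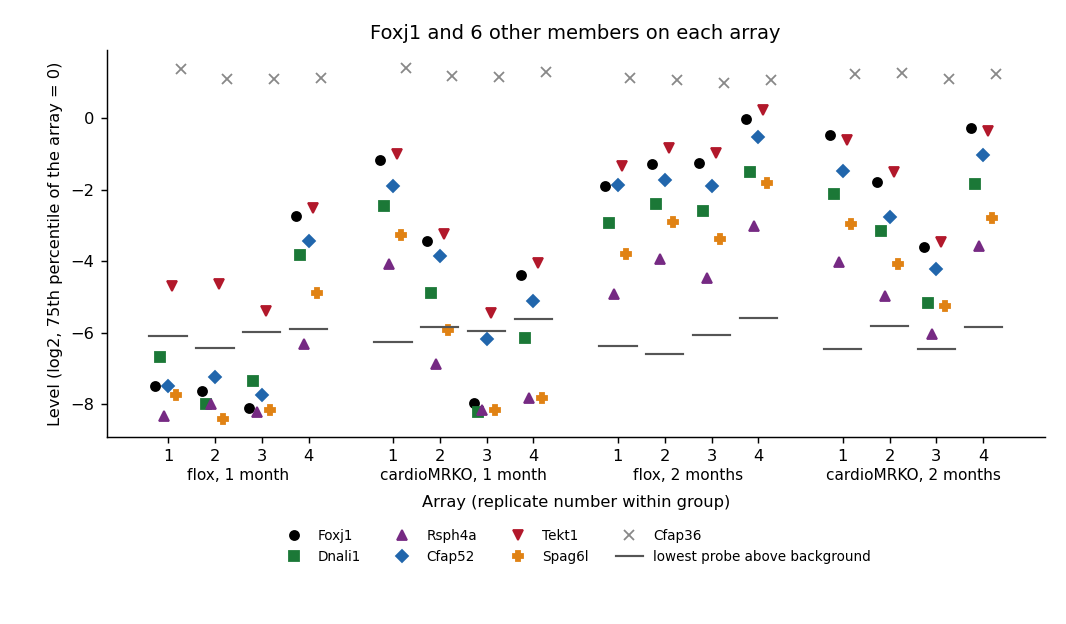
Level (log2, 75th percentile of the array at 0) of Foxj1 and 6 other members on each of the 16 arrays, by group and replicate, with a bar at the lowest probe above background on that array. Foxj1 lies under the bar on flox replicates 1 to 3 and cardioMRKO replicate 3 at 1 month, Dnali1, Rsph4a, Cfap52, Tekt1 and Spag6l are low on the same arrays, and Cfap36 stays between 0.99 and 1.41; heights of different genes are not comparable.

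In all, 54 of the 64 members were tested, which required a probe well above background on every array of 1 or more groups. The median SD of these 54 over the 16 arrays was 0.93, against 0.29 for all 20055 genes tested. With normexp background correction, whose offset compresses low levels, the median of the members was 0.41. The 0.29 is not the value of all genes in that setting. These SDs include levels that were not above background. Of the 54, 25 (46.3%) had an SD above 1.04, the 95th percentile of all genes. Because 4 arrays had no measured Foxj1, correlations with Foxj1 were taken over the other 12. These 12 arrays share 4 slides, and arrays of a group share age and genotype. Levels of a member that were not above background were kept in its r, as for Cfap70 and Spag16, which were above background on 8 of 16 arrays. Of the 53 other tested members 25 (47.2%) had a Pearson r of 0.9 or more, against 225 of 19676 other genes (1.14%), and the median r was 0.87 against 0.13. Over all 16 arrays, given as a description since the arrays form separate clusters, 18 members (34.0%) and 169 other genes (0.859%) reached 0.9. After each group mean was removed, 7 of the 53 members still had an r of 0.9 or more over 16 arrays, and the 25 members had values from 0.57 to 0.97. This count was not made for all genes, so no share stands beside it. It also includes the 4 arrays on which Foxj1 was not above background.

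Tekt1 followed Foxj1 most closely, with r = 0.991 and Spearman rho = 0.965 over 12 arrays (permutation p = 1e-05 for both, the smallest that 100000 resamples give; adjusted over 53 members 2.65e-05 and 4.08e-05). Without the 2 arrays farthest from the median Foxj1 level, cardioMRKO replicate 4 at 1 month and cardioMRKO replicate 3 at 2 months, r was 0.982. The light chain gene Dnali1 had r = 0.988 and rho = 0.972, and 0.983 without those arrays. For the 25 members the adjusted permutation p was at most 4.24e-05 for r and 0.000360 for rho, and r without those 2 arrays was at least 0.898. In all, 35 of 53 members had a positive r and 1 a negative r at an adjusted permutation p under 0.05, and by rho 33 members passed in either direction. The permutation shuffled the 12 arrays without regard to group, so its p does not separate differences between groups from covariation within them. It was run for members only, so no share of all genes stands beside these counts. Cfap206, at the base of a radial spoke, had r = 0.310 over 12 arrays and 0.956 over the 10 left. Its level on cardioMRKO replicate 4 at 1 month, at -3.81, was its highest of all arrays, while Foxj1 was at -4.38 there.

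**Figure D2:**
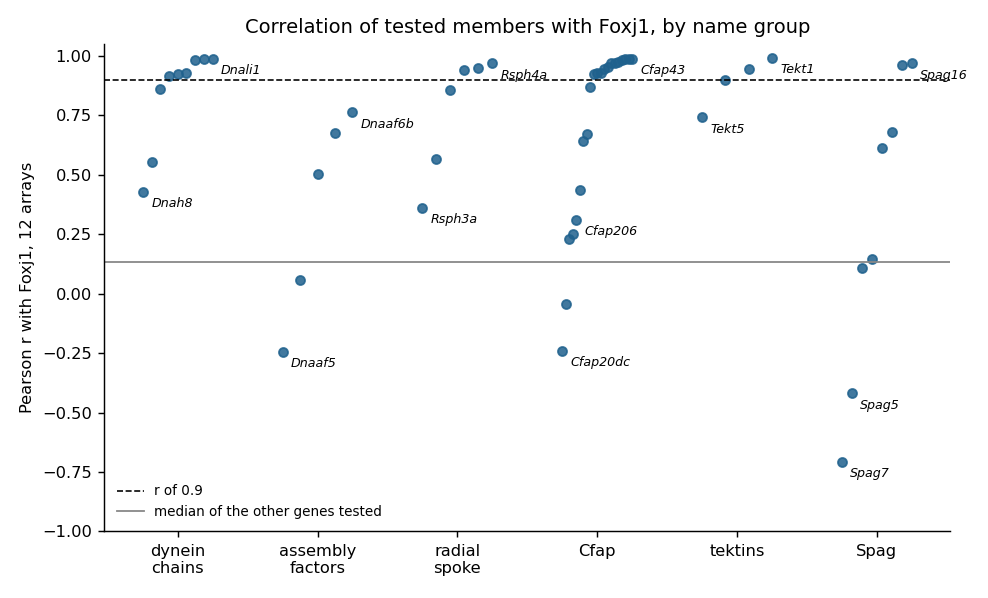
Pearson r with Foxj1 over the 12 arrays with Foxj1 above background (vertical axis) for each of 53 tested members, by name group; the dashed line is at 0.9 and the grey line at 0.13, the median of 19676 other genes. At or above 0.9 lie 6 of 9 dynein chains, 3 of 6 radial spoke genes, 12 of 21 Cfap genes, 2 of 4 tektins, 2 of 8 Spag genes and none of the 5 assembly factors, and the Spag genes span 0.97 to -0.71.

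Since RFX factors and Foxj1 act at promoters, the windows of 300 bases around the annotated starts (250 before to 50 after; RefSeq, GRCm38.p6) were searched on both strands for the X-box type motif (GTNNCC, then NNN, then GNNAC) and the forkhead motif TGTTTAC. Windows were given for 53 of the 64 members; Foxj1, Cfap157, Cfap299, Cfap53, Cfap65, Cfap97, Dnaaf1, Rsph1, Rsph4a, Spag1 and Spag11a had none. The X-box type motif was present in 20 of 60 member windows (33.3%), against 1518 of 32851 windows of all genes (4.62%). By gene this was 20 of 53 members, and among tested members it was in 5 of 19 with r of 0.9 or more and in 10 of 24 below 0.9. The motif thus occurred in members on both sides of that value. The forkhead motif was present in 3 of 60 member windows (5%) and in 3.65% of all windows, and no match of either motif overlapped the other. A match is a run of letters and not a measured binding site.

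The 9 stretches lie wholly before the start, each 60 bases, 5′ to 3′ on the gene's strand, with the X-box type match in capitals. They are shown because the motif occurred at both ends of the correlation with Foxj1, on the probes used. The first 6 belong to the tested members with the highest r among those with a match before the start, and the last 3 to those with the lowest r. Spag6l, with r = 0.961, held its match after the start and is not printed. They lie at chr11:72361883-72361942 (minus strand, Tekt1), chr11:69549158-69549217 (minus, Dnah2), chr1:69826844-69826903 (plus, Spag16), chr1:171122940-171122999 (plus, Cfap126), chr17:25471407-25471466 (plus, Tekt4), chr1:172521070-172521129 (plus, Cfap45), chr14:8666480-8666539 (minus, Cfap20dc), chr5:139150175-139150234 (plus, Dnaaf5) and chr11:78301382-78301441 (plus, Spag5).
Tekt1: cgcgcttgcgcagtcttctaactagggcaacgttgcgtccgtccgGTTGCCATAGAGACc
Dnah2: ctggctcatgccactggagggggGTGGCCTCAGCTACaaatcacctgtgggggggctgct
Spag16: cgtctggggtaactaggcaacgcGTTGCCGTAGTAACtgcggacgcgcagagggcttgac
Cfap126: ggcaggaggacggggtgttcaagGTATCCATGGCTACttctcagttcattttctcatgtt
Tekt4: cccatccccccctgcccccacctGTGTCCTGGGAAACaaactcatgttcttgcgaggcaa
Cfap45: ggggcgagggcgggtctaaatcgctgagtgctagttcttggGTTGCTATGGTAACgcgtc
Cfap20dc: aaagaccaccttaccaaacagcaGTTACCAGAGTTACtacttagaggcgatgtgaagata
Dnaaf5: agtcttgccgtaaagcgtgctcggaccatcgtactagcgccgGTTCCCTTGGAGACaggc
Spag5: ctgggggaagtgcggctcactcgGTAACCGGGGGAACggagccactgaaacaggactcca
The match begins 15 bases before the start in Tekt1, 86 in Dnah2, 103 in Spag16, 82 in Cfap126, 160 in Tekt4 and 19 in Cfap45. It begins 226 bases before the start in Cfap20dc, 18 in Dnaaf5 and 186 in Spag5. In Cfap45 the letters fit the motif on the opposite strand.

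Among the dynein chains 9 of 11 were tested and 6 had r of 0.9 or more with Foxj1. Dnah5 and Dnah9 are outer arm heavy chains of airway cilia, Dnah11 is a proximal outer arm chain, and Dnah2, Dnah6 and Dnah7a are inner arm chains. Dnali1, an inner arm light chain, read -6.67, -7.98, -7.34 and -3.83 in flox at 1 month and -2.46, -4.89, -8.21 and -6.13 in cardioMRKO. At 2 months it read -2.93, -2.40, -2.61 and -1.52 in flox and -2.12, -3.16, -5.16 and -1.86 in cardioMRKO. Its order of arrays was close to that of Foxj1: replicate 4 was the high array of flox at 1 month and replicate 1 that of cardioMRKO.

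Dnah5 read -8.38, -7.97, -8.12 and -4.71 in flox and -3.47, -7.72, -7.99 and -6.86 in cardioMRKO at 1 month, and was above background on 1 array of each. At 2 months it was above background on all 8 arrays, between -3.67 and -2.58 in flox and between -5.17 and -2.36 in cardioMRKO. Dnah9 had r = 0.986, Dnah2 0.981, Dnah6 0.929 and Dnah11 0.922, and on the probes used all of them were highest within their 1-month group on flox replicate 4 and cardioMRKO replicate 1. At 1 month Dnah6 and Dnah11 were above background on cardioMRKO replicate 1 only. Dnah7a followed with r = 0.862, and 0.952 without the 2 farthest arrays. A second probe of Dnah2, above background on all 16 arrays, had r = 0.155, and the second probes of Dnah5 and Spag16 that passed the filter also fell on the other side of 0.9 from the probe used.

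Dnah8, a heavy chain of the sperm tail, did not share this pattern: it was above background on all 16 arrays, spanned 1.24 and had r = 0.429. Dnah1, an inner arm chain needed in sperm and in cilia, read -4.42, -5.43, -5.57 and -5.53 in flox and -6.31, -7.52, -7.18 and -5.36 in cardioMRKO at 1 month, and it had r = 0.555. Dnah10 and Dnah17 were above background on 5 arrays each, on all 4 of no group, and were not tested.

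Of the 6 assembly factors 5 were tested and none reached an r of 0.9. Dnaaf6b had the highest value (0.762), Dnaaf4 followed (0.676), and Dnaaf2 (0.059) and Dnaaf5 (-0.245) had lower values. The other probe of Dnaaf5 had r = 0.385. Dnaaf2, Dnaaf4, Dnaaf5 and Dnaaf6b were above background on all 16 arrays. The exception by probe was Dnaaf1, a leucine-rich repeat factor: the probe used had r = 0.502, while its other probe had r = 0.975, and both were above background on 10 arrays. Dnaaf6, with r = 0.24, was above background on none and was not tested. On the probe used, Dnaaf1 read between -6.72 and -5.76 on the 8 arrays of 1 month and between -5.30 and -4.49 on the 8 arrays of 2 months, with no overlap between the ages.

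Of the 6 radial spoke genes 3 had r of 0.9 or more. Rsph4a, a spoke head protein of airway cilia, read -8.32, -7.98, -8.22 and -6.31 in flox and -4.07, -6.87, -8.15 and -7.81 in cardioMRKO at 1 month, and was above background on cardioMRKO replicate 1 only. At 2 months it read -4.91, -3.94, -4.48 and -3.02 in flox and -4.03, -4.97, -6.02 and -3.57 in cardioMRKO, all above background, with r = 0.969. Rsph14 (0.948) and Rsph1 (0.940) followed Foxj1, Rsph9 reached 0.857, and the spoke stalk gene Rsph3a spanned 0.61 over all arrays with r = 0.360 on the probe used. The other probes of Rsph3a had r = -0.71 and 0.40.

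Rsph6a, the sperm tail relative of Rsph4a, ordered the arrays differently. It read -5.14, -5.54, -6.70 and -7.09 in flox and -5.24, -6.52, -5.70 and -5.74 in cardioMRKO at 1 month, and -3.73, -4.12, -3.46 and -3.83 in flox and -4.58, -5.56, -5.70 and -5.73 in cardioMRKO at 2 months. The 4 flox arrays of 2 months lay above all other arrays, whereas flox replicate 4 at 1 month, the Foxj1-high array of that group, read lowest. Rsph6a was not above background on flox replicates 3 and 4 at 1 month, so the order of these arrays was not measured. Its r with Foxj1 was 0.564 over 12 arrays and -0.166 after group means were removed. Both values include levels that were not above background, as Rsph6a was above it on 11 of 16 arrays.

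The Cfap genes held 12 of 21 tested members with r of 0.9 or more. Cfap52, a protein inside the doublet microtubules, read -7.48, -7.23, -7.74 and -3.43 in flox and -1.89, -3.86, -6.18 and -5.10 in cardioMRKO at 1 month. It read -1.86, -1.74, -1.90 and -0.53 in flox and -1.47, -2.75, -4.23 and -1.03 in cardioMRKO at 2 months. Cfap43 (r = 0.987), Cfap65 (0.985), Cfap299 (0.985), Cfap70 (0.976), a central pair protein, and Cfap53 (0.955), which also lies inside the doublets, were low on flox replicates 1 to 3 of 1 month as well. Cfap299 differed from Foxj1 in its order within cardioMRKO at 1 month, at -5.10 on replicate 3 and -6.13 on replicate 4.

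Some Cfap genes moved much less but also had r of 0.9 or more. Cfap126, which helps dock basal bodies, spanned 1.72 and was above background on all 16 arrays with r = 0.944, and Cfap69 spanned 1.81 with r = 0.927. The order of arrays was not that of Foxj1 throughout. Cfap69 was lowest on cardioMRKO replicate 3 at 2 months, at -2.79, where Foxj1 was above background. Other Cfap genes stayed flat on the probe used: Cfap20 (range 0.92, r = 0.25), Cfap36 (0.42, r = -0.044), Cfap20dc (0.42, r = -0.241) and Cfap97 (0.83, r = 0.437) were above background on every array. The other probes of Cfap20dc, also above background on all 16 arrays, had r = -0.754 and -0.508. Cfap298 and Cfap300, which take part in dynein arm assembly, had r = 0.672 and 0.229. The 5 untested Cfap genes were Cfap221 and Cfap97d1, above background on no array, Cfap58 on 2, Cfap44 on 6 and Cfap61 on 9. Of these Cfap44, which with Cfap43 belongs to a tether of the inner arms, had r = 0.901.

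All 4 tektins were tested. Tekt1 read -4.68, -4.64, -5.40 and -2.50 in flox and -1.0, -3.24, -5.46 and -4.05 in cardioMRKO at 1 month. It read -1.35, -0.82, -0.98 and 0.23 in flox and -0.60, -1.51, -3.45 and -0.37 in cardioMRKO at 2 months, above background throughout, so its order among the 4 arrays lowest in Foxj1 was also measured. These 4 arrays were the lowest for Tekt1. Tekt2 had r = 0.945, Tekt4 0.899 and Tekt5, a tektin of the sperm tail, 0.742, with -0.088 after group means were removed.

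The Spag genes, named as sperm-associated antigens, were the most mixed. Spag6l and Spag16, both of the central pair, followed Foxj1 with r = 0.961 and 0.968. Spag6l read -7.73, -8.41, -8.15 and -4.89 in flox and -3.28, -5.93, -8.15 and -7.81 in cardioMRKO at 1 month, above background on 1 array of each, and between -5.25 and -1.82 on the 8 arrays of 2 months. Spag4 (0.681), a nuclear envelope protein of spermatids, followed Foxj1 less closely. Spag11a, a defensin-like secreted protein of the epididymis, had r = 0.613 (adjusted permutation p = 0.0510). It was above background on 5 of 16 arrays, so most levels in that r were not measured. Spag1 (0.145), a dynein assembly protein, and Spag9 (0.108 on the probe used), a scaffold of kinase signalling, did not follow Foxj1. The other probes of Spag9 had r = -0.402 and -0.530. Spag7 had r = -0.707 (adjusted permutation p = 0.00749), with its lowest level of 1.81 on flox replicate 4 at 2 months. Over all 16 arrays its r was -0.413, and -0.171 after group means were removed. The central pair genes Spag17 and Spag6 were above background on 4 and 5 arrays and were not tested.

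Spag5, which encodes the spindle protein astrin of dividing cells, ran by age. It read -2.71, -2.62, -2.83 and -3.12 in flox and -1.94, -2.27, -2.39 and -2.15 in cardioMRKO at 1 month, and -4.90, -5.07, -5.53 and -4.35 in flox and -4.18, -4.67, -4.36 and -3.54 in cardioMRKO at 2 months. All 8 arrays of 1 month were above all 8 of 2 months. Markers of dividing cells moved with it: 5 of 6 tested (Mki67, Top2a, Aurka, Ccnb1 and Cdk1) fell with age in each genotype, and their summed level was 2.64 to 4.58 in flox and 4.49 to 6.30 in cardioMRKO at 1 month, and 1.18 to 1.70 and 1.37 to 2.60 at 2 months.

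**Figure D3:**
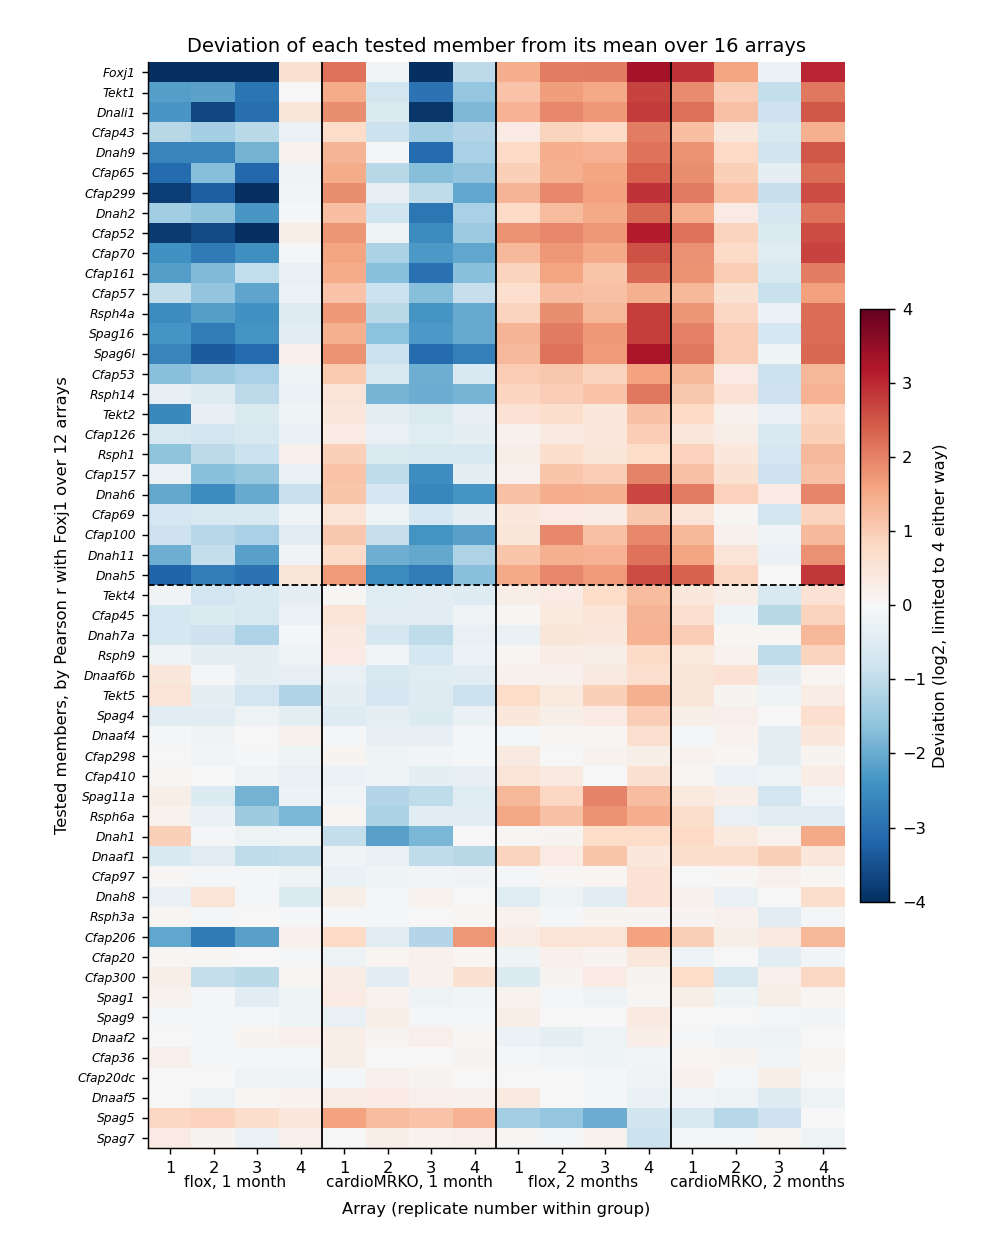
Deviation (log2) of each of the 54 tested members from its mean over the 16 arrays; columns are arrays by group and replicate, rows are ordered by Pearson r with Foxj1 over 12 arrays, and the dashed line divides Foxj1 and the 25 members at 0.9 or more from the rest. Above the line flox replicates 1 to 3 and cardioMRKO replicate 3 at 1 month are blue and flox replicate 4 at 2 months is red; Spag5, near the foot, is red at 1 month and blue or near white at 2 months.

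Of 43 listed motile cilia genes outside these name groups 33 were on the arrays and 13 had r of 0.9 or more, with a median of 0.86 and a range from -0.54 to 0.99. By r over the 12 arrays the 5 genes most like Foxj1 among all tested genes with a symbol were Capsl (r = 0.991), the member Tekt1, the mucosal chemokine gene Cxcl17 (0.991), 1600029I14Rik (0.990) and the adenylate kinase gene Ak7 (0.990). The dynein light chain gene Dynlrb2 (0.988), the nexin-dynein regulator Drc1 (0.986) and the assembly factor Zmynd10 (0.987) were among the 18 closest. Dynlrb2 read -4.66, -5.04, -5.86 and -0.93 in flox and 0.74, -1.59, -6.16 and -2.75 in cardioMRKO at 1 month. It read 0.13, 0.74, 0.68 and 1.82 in flox and 0.94, -0.24, -2.22 and 1.38 in cardioMRKO at 2 months.

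Of the 13 regulators of ciliogenesis 10 were on the arrays, and Myb (r = 0.916), which acts early in the making of multiciliated cells, was the only one with r of 0.9 or more. Rfx2 (r = -0.093) and Rfx3 (-0.480), which bind the X-box, were above background on all 16 arrays. Cdc20b was above background on none. All 24 genes of intraflagellar transport and the BBSome, which serve primary as well as motile cilia, were above background on all arrays, and none reached 0.9: their median r was -0.07 and the highest 0.46.

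Genes of the airway lining moved on the same arrays as the motile cilia genes. Of 10 club and secretory cell markers 8 had r of 0.9 or more with Foxj1, and their summed level was 4.78 to 80.7 in flox and 4.93 to 190.0 in cardioMRKO at 1 month, and 158.6 to 598.5 and 50.1 to 310.9 at 2 months. Scgb1a1, the club cell secretoglobin, read -4.03, -3.13, -4.72 and 4.16 in flox and 5.36, 3.49, -4.80 and 2.40 in cardioMRKO at 1 month, and 3.76 to 7.66 on the 8 arrays of 2 months. Bpifb1, a secreted defence protein of airways, had r = 0.987. Of 10 general epithelial markers 7 reached 0.9, among them Cdh1 (0.973) and Epcam (0.972), and their summed level was 2.22 to 5.29 and 2.08 to 10.4 at 1 month and 7.92 to 21.6 and 3.64 to 16.3 at 2 months. The spot of Scgb3a2 on cardioMRKO replicate 2 at 1 month, was left out as an outlier and is not in that array's sum. The part of these genes in the levels of the cilia genes was not tested.

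Markers of the gas-exchanging lung were split. Of 12 alveolar markers on the arrays 3 reached 0.9, and their summed level was 3.26 to 32.5 in flox and 3.61 to 6.31 in cardioMRKO at 1 month, and 6.65 to 102.1 and 3.77 to 14.9 at 2 months. Sftpc, the surfactant protein of alveolar type II cells, read 4.64 on flox replicate 4 at 1 month, 3.46 and 6.32 on flox replicates 2 and 4 at 2 months and 2.94 on cardioMRKO replicate 2 at 2 months, and at most -1.22 on the other 12 arrays. On cardioMRKO replicates 1 and 4 at 2 months, where Foxj1 was at -0.47 and -0.29, Sftpc was at -3.73 and -3.49. The type I cell gene Ager and the alveolar claudin Cldn18, above background on 5 and 4 arrays, were high on the same 4 arrays as Sftpc. Sftpa1 and Sftpd, which airway cells also make, had r = 0.876 and 0.912.

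Markers of other tissues that could lie beside a dissected heart were read as well. Of 10 cartilage markers 6 were above background on all 16 arrays and Matn1 and Matn3 on none. None reached 0.9: r ran from -0.44 to 0.68, the highest in the proteoglycan gene Acan, which rose with age in flox by 0.78 (SE 0.168, adjusted p = 0.00432). The summed level of the list was 8.75 to 11.1 at 1 month and 4.35 to 7.20 at 2 months. Of 6 thymus markers on the arrays Dntt was above background on all 16 arrays, Psmb11 on 12, Rag1 on 7 and Rag2, Foxn1 and Prss16 on none. None reached 0.9, with the highest r in Psmb11 (0.779) and 0.410 in Dntt, and the summed level was 0.0839 to 0.365 over all arrays. Of 5 mesothelium markers Krt19, which is also an epithelial marker, reached 0.9, and the summed level was 4.32 to 9.06 at 1 month and 5.22 to 14.2 at 2 months.

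**Figure D4:**
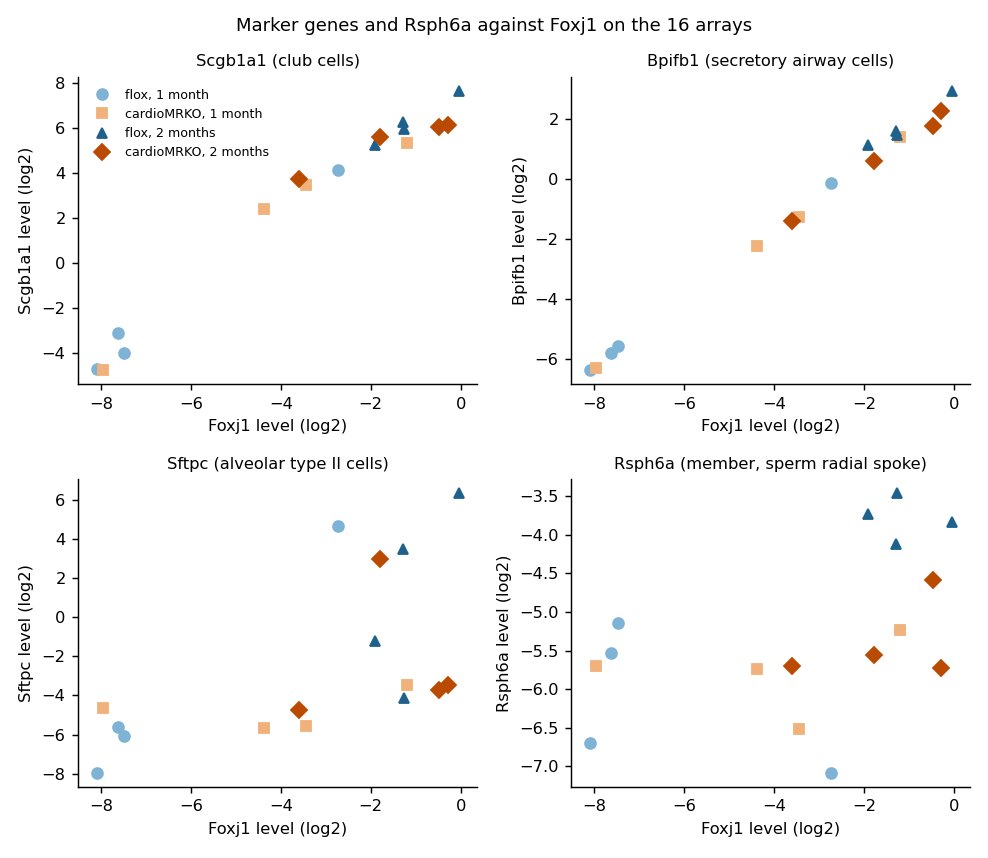
Levels (log2) of Scgb1a1, Bpifb1, Sftpc and the member Rsph6a against Foxj1 on the 16 arrays, with colour and symbol for the group. Scgb1a1 and Bpifb1 rise with Foxj1 over all arrays, Sftpc is high on 4 arrays only, and Rsph6a is highest on the 4 flox arrays of 2 months.

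Between genotypes at 1 month no member passed (0 of 54, limma with Benjamini-Hochberg adjustment over 20055 genes), where 0.0947% of all genes passed, 0.0499% higher and 0.0449% lower. An unadjusted p under 0.05 was found for 4 of the 54 and for 1207 of all 20055 genes. All 4 cardioMRKO arrays lay above all 4 flox arrays for 2 members, Spag5 and Dnaaf5, as in 3.95% of all genes, and below them for none, against 3.68%. Of the 54 members 44 read higher in cardioMRKO, with a median difference of 0.27 against 0.02 for all genes. Foxj1 differed by 2.25 (SE 1.35, adjusted p = 0.922), with overlapping groups. The lowest adjusted p was 0.552, for Dnah1, which differed by -1.36 (SE 0.432) and was above background on 4 flox arrays and 1 cardioMRKO array, and Cfap299 differed by 2.41 (SE 0.976, adjusted p = 0.764). Flox was above background in Foxj1 on 1 array and cardioMRKO on 3.

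Between genotypes at 2 months 1 of 54 members passed (3.53% of all genes passed, 1.55% higher and 1.98% lower), Rsph6a, which fell by 1.61 in cardioMRKO (SE 0.404, adjusted p = 0.0427). It averaged -3.78 in flox and -5.39 in cardioMRKO, and was above background on 4 and 3 arrays. Rsph6a passed the filter on dim probes only through the flox arrays of 2 months, where it was high, so the call is conditional on that group being bright. The call was lost without flox replicate 1, 3 or 4 (adjusted p 0.0950, 0.105 and 0.0831) and without cardioMRKO replicate 2, 3 or 4 (0.0989, 0.112 and 0.0992). It was also lost as the mean of its 2 probes (0.174), in the 8 arrays alone (0.0597), with array weights (0.0651), when dim probes were kept (0.0702) and when both low spike-in arrays were left out (0.151). With array weights and without flox replicate 4 the 1 member called was Spag5, 0.83 and 0.98 higher in cardioMRKO (adjusted p 0.0460 and 0.0447). When a probe had to be above background on all 16 arrays it was Dnah2, on its other probe, at -0.56 (adjusted p = 0.0479).

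Spag11a differed by -1.38 (SE 0.411, adjusted p = 0.0790), also with all 4 flox arrays above all 4 cardioMRKO arrays, as for Rsph6a and in 7.28% of all genes. It passed with normexp (-0.52, adjusted p = 0.0434), and it too passed the filter only through the flox arrays of 2 months. No member had all 4 cardioMRKO arrays above, against 2.87%. Of the markers of sperm and testis 1 of 7 tested fell at the same age, the protamine gene Prm1, by 1.35 (SE 0.217, adjusted p = 0.00418). Their summed level was 0.847 to 1.28 in flox and 0.375 to 0.720 in cardioMRKO at 2 months, and 0.402 to 0.589 and 0.496 to 0.678 at 1 month. Of the markers on the arrays Ldhc and Spata16 were above background on no array, and the part of this list in the Rsph6a difference was not tested.

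Between genotypes at 2 months Foxj1 differed by -0.42 (SE 1.35, adjusted p = 0.888), which turned to 0.27 without cardioMRKO replicate 3, to 0.13 with array weights and to 0.64 with both low spike-in arrays left out. Of the 54 members 43 read lower in cardioMRKO, with a median of -0.38 against -0.08 for all genes. Over both ages together 0 of 54 passed by limma, where 1.14% of all genes passed, 0.583% higher and 0.558% lower. An unadjusted p under 0.05 was found for 5 of 54 members and for 2686 of all 20055 genes. The lowest adjusted p of a member was 0.0745, for Spag5, 0.71 higher in cardioMRKO (SE 0.175). Spag5 alone passed with array weights (0.72, adjusted p = 0.0109), without flox replicate 4 at 2 months (0.81, adjusted p = 0.0252) and with both low spike-in arrays left out (0.84, adjusted p = 0.0274). The median over both ages was 0.03, and it turned to -0.08 with normexp.

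Between ages in flox 36 of 54 members passed (66.7%), 35 higher and 1 lower at 2 months, where 22.7% of all genes passed (16.7% higher and 5.91% lower). The filter on dim probes bears on this count: 25 of the 54 members passed it only through 2-month groups, and all 25 are among the 35, while of the other 29 members 10 rose. When a probe had to be above background on all 16 arrays, 11 of 29 members passed, 10 higher and 1 lower, where 19.9% of all genes passed. The median difference of the members was 1.41 against 0.07 for all genes, and 0.66 against 0.09 with normexp. Foxj1 rose (5.37, SE 1.35, adjusted p = 0.0107), but it was above background on 1 array of 4 at 1 month, and with the other 3 raised to the lowest level above background the difference was 4.19. All 4 tektins, 7 of 9 dynein chains, 4 of 6 radial spoke genes, 14 of 21 Cfap genes, 4 of 8 Spag genes and 1 of 5 assembly factors rose. For 36 members all 4 arrays of 2 months lay above all 4 of 1 month, as in 19.9% of all genes, and for 1, Spag5, below, as in 8.09%, although flox replicate 4 at 1 month stood above the other arrays of its group.

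Among the members that rose, Cfap52 was 4.96 higher (SE 1.03, adjusted p = 0.00352), Cfap299 4.75 (SE 0.976, adjusted p = 0.00331), Spag6l 4.32 (SE 1.01, adjusted p = 0.00714), Dnali1 4.09 (SE 1.12, adjusted p = 0.0164) and Dnah5 4.04 (SE 0.992, adjusted p = 0.00932). Each of these 5 passed the filter on dim probes only through 2-month groups, so the calls are conditional on those groups being bright. Each was above background on 1 of 4 arrays at 1 month, so the sizes rest on levels that were not measured. With those levels raised to the lowest one above background on the array, the differences were 3.97, 3.55, 2.88, 3.22 and 2.55. Members above background on none of the flox arrays at 1 month have only a bound: Dnah6 was at least 4.99-fold higher at 2 months, Spag16 at least 4.6-fold, Cfap70 at least 4.44-fold, Rsph4a at least 4.03-fold, Dnah11 at least 2.92-fold and Spag11a at least 2.07-fold. Their adjusted p was 0.00259, 0.00331, 0.00655, 0.00543, 0.00534 and 0.00382. Spag16, Cfap70 and Spag11a passed the filter only through the flox arrays of 2 months and Dnah6, Rsph4a and Dnah11 only through 2-month groups. The bound sets the mean of 2 months against, per array, the higher of the lowest probe above background and the dim probe itself. Spag5 fell by 2.14 (SE 0.248, adjusted p = 0.000156).

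In total 28 to 35 members passed with 1 of the 8 flox arrays left out, and 26 of the 36 passed whichever was left out. The other 10 were Cfap157, Cfap161, Cfap410, Cfap69, Dnah2, Dnah7a, Dnah9, Dnali1, Rsph1 and Rsph14. Of these, 8 lost the call without flox replicate 2 at 1 month (adjusted p 0.0533 to 0.123), 8 without replicate 3 at 1 month (0.0504 to 0.121) and 8 without replicate 4 at 2 months (0.0517 to 0.123). Fewer lost it without replicate 1 (5, 0.0509 to 0.121) or 4 (3, 0.0501 to 0.0858) at 1 month, or without replicate 1 (2, 0.0591 to 0.0720), 2 (3, 0.0643 to 0.0816) or 3 (4, 0.0533 to 0.0797) at 2 months. With Dnah2 read from the probe that was above background on all arrays, its difference was -0.07 (adjusted p = 0.765) in place of 2.80.

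Airway markers moved with this comparison: 9 of 10 club and secretory markers and 8 of 9 tested epithelial markers rose, Scgb1a1 by 8.22 (SE 2.03, adjusted p = 0.00960) and Cdh1 by 5.09 (SE 1.24, adjusted p = 0.00884). Of 32 tested motile cilia genes outside the name groups 22 rose and 2 fell. Among them Capsl rose by 5.26 (SE 1.26, adjusted p = 0.00812), and the light chain gene Dnal1 fell by 0.94 (SE 0.267, adjusted p = 0.0203). Of 24 intraflagellar transport and BBSome genes none rose and 2 fell, Ift122 by 0.79 (SE 0.157, adjusted p = 0.00268) and Ift74 by 0.87 (SE 0.285, adjusted p = 0.0413). Of the 7 tested sperm and testis markers 4 rose and 1 fell. Among those that rose was Prm1, by 1.48 (SE 0.217, adjusted p = 0.000473).

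Between ages in cardioMRKO 7 of 54 members passed (13.0%), 5 higher and 2 lower, near the 10.2% of all genes that passed (5.32% higher and 4.93% lower). All 4 arrays of 2 months lay above all 4 of 1 month for 5 members and below for 3, against 9.15% and 10.8% of all genes. The median difference was 0.70 against 0.00084 for all genes (0.29 and -0.02 with normexp). By limma 23 of 54 members had an unadjusted p under 0.05, and so had 5008 of all 20055 genes. Dnah6 rose by 2.44 (SE 0.70, adjusted p = 0.0397), Dnah1 by 1.94 (SE 0.432, adjusted p = 0.0117), Rsph14 by 1.85 (SE 0.557, adjusted p = 0.0490), Dnaaf1 by 1.35 (SE 0.237, adjusted p = 0.00296) and Spag4 by 0.70 (SE 0.168, adjusted p = 0.0175). At 1 month Dnah6, Dnah1, Rsph14 and Dnaaf1 were above background on 1 of 4 arrays each, and Spag4 on all 4. The sizes for the first 4 of these genes thus rest on levels that were not measured. Dnah6, Rsph14 and Dnaaf1 passed the filter on dim probes only through 2-month groups, so their calls are conditional on those groups being bright. Spag5 fell by 2.00 (SE 0.248, adjusted p = 0.000371) and Dnaaf5 by 0.51 (SE 0.131, adjusted p = 0.0249). Foxj1 differed by 2.71 (SE 1.35, adjusted p = 0.234), with overlap: cardioMRKO replicate 1 at 1 month, at -1.18, was above replicates 2 and 3 at 2 months. No airway secretory or general epithelial marker passed, and of 9 tested alveolar markers 1 rose. Of 32 tested motile cilia genes outside the name groups 4 rose and 1 fell. Of 24 intraflagellar transport and BBSome genes 0 rose and 3 fell.

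Single arrays moved this count. It was 17 without replicate 1 of 1 month, 14 without replicate 3 of 2 months, 4 without replicate 2 of 1 month and 3 without replicate 3 of 1 month, and 18 with both low spike-in arrays left out. It was 27 with array weights, 4 with no filter on dim probes, 3 when a probe had to be above background on all 16 arrays and 2, Spag5 and Dnaaf5, with normexp. Dnaaf1, Dnah1 and Spag5 passed whichever array was left out. Dnah6 and Rsph14 each lost the call when any of 6 arrays was left out (adjusted p 0.0672 to 0.136), that is any but replicate 1 of 1 month and replicate 3 of 2 months. Dnaaf5 lost it without replicate 1, 2 or 3 of 1 month (0.0586, 0.0714 and 0.0518) and Spag4 without replicate 3 of 1 month (0.0533). With the mean of a gene's probes Dnaaf5 (-0.22, limma adjusted p = 0.155) and Rsph14 (0.0516) lost the call. With no filter on dim probes Dnaaf5 (0.0537), Dnah6 (0.0671) and Rsph14 (0.0806) lost it.

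The difference between the genotypes in their change with age was tested directly. No member passed (0 of 54, limma), where 0.748% of all genes passed. An unadjusted p under 0.05 was found for 6 of 54 members and for 2264 of all 20055 genes. The lowest adjusted p of a member was 0.158, for Rsph6a, with a difference of -1.93 (SE 0.572). For Foxj1 it was -2.66 (SE 1.91, adjusted p = 0.655), and 45 of 54 members had a negative value. The larger count in flox than in cardioMRKO is therefore not shown to be a difference between genotypes.

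**Figure D5:**
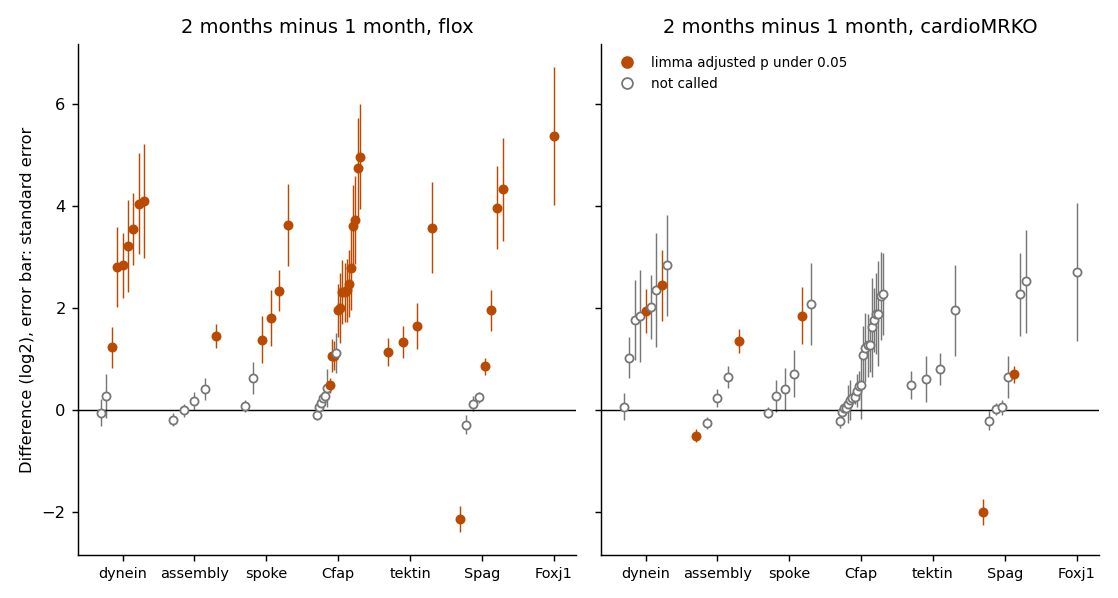
Difference in level between 2 months and 1 month (log2, error bars are standard errors of the limma fit) of the 54 tested members by name group, in flox and in cardioMRKO; filled points have an adjusted p under 0.05. In flox 35 members rose and Spag5 fell, in cardioMRKO 5 rose and 2 fell, and the tektins lie above 0 in both.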

How the data were processed

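Whole-heart RNA of 16 mice was hybridised to single-colour Agilent arrays. The deposited intensity values, gProcessedSignal, are the processed signal of Agilent Feature Extraction, version 12.0.0.7 per the file headers and 9.5 per the submitters' processing notes. The deposited series matrix holds the same values (largest difference 0). Spots flagged as outliers and control spots were left out, spots of a probe were averaged, and log2 values were scaled to each array's 75th percentile. Of 41174 probes 28215 had a current symbol through their accession.

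To pass, a probe had to be well above background on every array of 1 or more groups; the brightest passing probe stood for a gene. The 20055 genes were fitted with limma 3.58.1 in R 4.3.3, with 1 mean per group, and p-values were adjusted by Benjamini-Hochberg over all of them, with a threshold of 0.05. Correlations used 100000 permutations in Python 3.11.15 with scipy 1.17.1 and pandas 2.3.3. The procedure was tested on simulated data. Alternatives were normexp background correction (offset 50, on gMedianSignal in place of the planned gMeanSignal), quantile normalization, other filters on dim probes, the mean of a gene's probes, array weights, the 8 arrays compared alone, the replicate number as a block and leaving out arrays. An at-least fold sets the bright group's mean against, per array, the higher of the lowest probe above background and the dim probe itself.

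Members and marker lists were chosen with earlier results of these data known. Text named Foxj1, Nr3c2, members called in a comparison (up to 8 per direction), members with the highest and lowest r, up to 6 per name group by range and up to 5 per marker list; a few others are named because they were left untested or have values unlike their group, chosen after their values were seen. The series' design text gives 4 mice in each group, the labels give replicate numbers but no litter or day, and the number of arrays limits the precision.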

Additional observations from a re-analysis of the deposited data

Results flagged for a closer look

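In groups of 4 arrays, 16 of 216 groups of member levels held an array far from the other 3 (gap over range above Dixon's critical value). Chance flags about 1 in 20 groups, and members that move together are flagged together. Flox replicate 4 at 1 month gave 7 of the 16 flags. It was highest in Foxj1 (-2.73), Cfap52 (-3.43), Cfap69 (-2.25), Dnah5 (-4.71), Cfap70 (-5.76) and Rsph4a (-6.31), the last 2 not above background there, and lowest in Spag9 (3.27). Flox replicate 4 at 2 months was highest in Cfap52 (-0.53) and Cfap69 (-0.98).

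CardioMRKO replicate 1 at 1 month was highest in Rsph1 (-2.92), Rsph14 (-4.58), Spag16 (-4.45) and the tektin Tekt4 (-0.97). Flox replicate 1 at 1 month was highest in Dnah1 (-4.42) and Cfap36 (1.37). CardioMRKO replicate 1 at 2 months was highest in Rsph6a (-4.58).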

How the results depend on the processing

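No member passed between genotypes at 1 month, or in the difference of age changes, whichever setting was used. At 2 months the count between genotypes was 2 with normexp, Rsph6a and Spag11a, and 0 with no filter, with the mean of probes, with the 8 arrays alone and with both low spike-in arrays left out; it was 0 to 1 with 1 array left out. Over both ages it was 1 with array weights and 1 without both low spike-in arrays, and 0 to 1 with 1 array left out. Between ages in flox it was 11 when a probe had to be above background on all 16 arrays, which leaves 29 members to test, and 28 to 35 with 1 array left out. In cardioMRKO it was 2 with normexp, 4 with no filter, 3 with the all-array filter, 27 with array weights, 18 without both low spike-in arrays, and 3 to 17 with 1 array left out. After centring on group means 7 members reached an r of 0.9 over all 16 arrays, a count not made for all genes. With normexp the median SD of members was 0.41, and the offset of normexp compresses low levels. Directions turned for Foxj1 between genotypes at 2 months (0.13 with array weights, -0.83 to 0.27 with 1 array left out, the latter without cardioMRKO replicate 3, and 0.64 without both low spike-in arrays), for Dnah2 between ages in flox on its other probe (-0.073), and for Nr3c2 at 1 month with normexp (0.016, exact permutation p = 0.743); the cause was not tested. With the replicate number as a block the counts were 0, 1, 0, 0, 37 and 8 in the order genotype at 1 month, at 2 months, over both ages, difference of age changes, age in flox and age in cardioMRKO. Arrays with the same number had deviations correlated from -0.31 to 0.36, so the numbers were not taken as pairs. No scaling moved the median of all genes by more than 0.079. Members at background on single arrays have no measured order there, and the bounds given are lower limits.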
